A study of Mus musculus with 15 samples.

Results

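Smooth muscle cells taken from the mouse aorta were compared with the smooth muscle-like cells that mouse induced pluripotent stem cells (iPSC) gave after 13 days of differentiation. The samples were chosen by their labels: the aortic GFP+ group held 3 samples (numbered 1, 2 and 3) of primary aortic smooth muscle cells, and the day 13 GFP+ group held 3 samples (numbered 3, 5 and 6) of candidate smooth muscle cells. Both groups carry Acta2hrGFP, in which green fluorescent protein (GFP) reports on Acta2, the gene of smooth muscle alpha-actin, and both are labelled GFP+. Thus 6 of the 15 arrays of the series were compared, over all 25206 probe sets. The other arrays, 3 each of iPSC at day 0, Kdr+ cells at day 5 and GFP- cells at day 13, entered only the estimate of the spread and are quoted where a level at those stages is given. The strain, age and number of the mice, and whether the aortic cells were kept in culture before RNA was taken, are not given in the sources used here. Each group is labelled as biological triplicates, with no word on separate animals or cultures, so the p-values measure the spread between these samples. Tissue of origin and any difference in culture or handling between the groups cannot be told apart.

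Smooth muscle of the arterial wall works by a calcium-triggered sliding of actin on smooth muscle myosin, and its genes are switched on by serum response factor (SRF) with its cofactor myocardin at CArG boxes in their promoters. In the mature wall these cells divide rarely, sit in elastic layers that they made mostly around birth, and answer vasoactive hormones and nitric oxide. Smooth muscle that is injured, growing or placed in culture can lower its contractile genes and turn to division and matrix production, and cells derived from stem cells often keep features of the embryo.

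Probe sets are named by Entrez gene ID, 1 per gene, and levels are log2 values made by RMA, so a difference of 1 is 2-fold, and every difference is aortic minus day 13 GFP+. Of 25206 probe sets, 9372 (37.2%) passed limma's test at an adjusted p of 0.05, of which 4449 (17.7%) were higher and 4923 (19.5%) lower in aortic samples. At least 2-fold differences were found for 1764 higher (7%) and 2007 lower (7.96%) probe sets, and at least 16-fold ones for 124 higher (0.492%) and 42 lower (0.167%). All 3 aortic samples lay above all 3 day 13 GFP+ samples in 5740 probe sets (22.8%) and below them in 5574 (22.1%). Across genes, aortic samples correlated with each other at r of 0.977 to 0.979, day 13 GFP+ samples at 0.982 to 0.994, and samples of the 2 groups at 0.89 to 0.899. In a principal component analysis of the 6 samples, the first component (80% of the variance) separated the groups, and the second (6.41%) set day 13 GFP+ sample 3 (34.9) apart from samples 5 and 6 (-17.4 and -17.6). The aortic samples spread on the second component too, at 4.92, 14.2 and -19.0. Without day 13 GFP+ sample 3, 3917 probe sets were higher and 4601 lower. As a gauge of genes these cells do not use, 1354 olfactory and vomeronasal receptor probe sets had a 95th percentile of 3.97 in aortic and 3.69 in day 13 GFP+ samples. Of these, 159 were called higher (11.7%) and 10 lower, a lean upward in aortic samples that was 47 against 31 after cyclic loess scaling. Xist, the transcript of the inactive X chromosome, was high in both groups (9.46 against 8.20), and the Y-linked genes lay under the gauge in both. Aortic sample 2 stood above the other aortic samples in these: Kdm5d was at 1.81, 3.16 and 2.07 in the aortic samples, against 1.73, 1.84 and 1.84 in the day 13 GFP+ samples, Eif2s3y at 1.51, 3.91 and 1.97 in the aortic samples, against 1.56, 1.65 and 1.74 in the day 13 GFP+ samples and Uty at 1.63, 3.63 and 2.13 in the aortic samples, against 1.71, 1.77 and 1.54 in the day 13 GFP+ samples. None of the 3 passed with all samples (adjusted p of 0.0724 to 0.133), and all passed without aortic sample 1 (0.00421 to 0.0137). Values near 4 are therefore read with care, and a fold against such a value is limited by the array's background. In bulk samples such as these, fewer cells of a type and less RNA per cell cannot be told apart.

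The 20 genes with the highest differences were taken from called genes whose groups did not overlap, leaving out unnamed, clone, predicted and receptor symbols. They included genes of the cell surface, the matrix and contraction. Aoc3, an amine oxidase on the surface of vascular smooth muscle, stood at 9.91, 9.61 and 9.45 in the aortic samples, against 2.46, 2.31 and 2.28 in the day 13 GFP+ samples. The log2 difference was 7.31 (SE 0.13, 159-fold, adjusted p = 4.83e-15). Ecm2, a matrix protein related to the small proteoglycans, measured 9.64, 9.49 and 9.24 in the aortic samples, against 2.24, 2.32 and 2.38 in the day 13 GFP+ samples, a log2 difference of 7.14 (SE 0.122, 141-fold, adjusted p = 4.71e-15). Ccn3, a secreted matricellular protein, had 11.09, 10.95 and 11.10 in the aortic samples, against 4.12, 3.89 and 4.12 in the day 13 GFP+ samples, a difference of 7.01 (SE 0.15, 129-fold, adjusted p = 5.96e-14). Entpd1 (CD39), which breaks down extracellular ATP and ADP, was at 10.85, 10.62 and 10.79 in the aortic samples, against 3.81, 4.42 and 3.86 in the day 13 GFP+ samples (106-fold). In all of these the day 13 GFP+ samples lay near the gauge of unused genes and the aortic samples among the strongly expressed genes. The others of the 20 highest included Cd200, a surface glycoprotein that restrains myeloid cells (121-fold), Mustn1, a small nuclear protein of muscle and skeleton (99.2-fold), Sod3, the extracellular superoxide dismutase (81.5-fold), and Fmo2, a flavin monooxygenase (93.8-fold). Itgbl1 (90.6-fold), Map3k7cl (80.3-fold), Efhd1 (55.8-fold) and Adcy5 (49.5-fold), which makes cAMP, followed, as did Fhl5, a LIM-domain coactivator (54.3-fold).

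The 20 genes with the lowest differences, taken by the same rule, included imprinted, growth and mitosis genes. Mest, an imprinted gene expressed from the paternal allele in embryonic mesoderm, stood at 4.16, 4.67 and 4.91 in the aortic samples, against 11.19, 11.59 and 11.60 in the day 13 GFP+ samples. That is a log2 difference of -6.88 (SE 0.229, 117-fold lower, adjusted p = 3.35e-12). Slc38a4, an imprinted amino acid transporter gene, measured 3.15, 3.64 and 4.02 in the aortic samples, against 10.20, 10.38 and 10.26 in the day 13 GFP+ samples, a difference of -6.67 (SE 0.203, 102-fold lower, adjusted p = 1.13e-12). Pleiotrophin (Ptn), a secreted growth factor of developing tissue, was at 3.75, 4.25 and 4.13 in the aortic samples, against 9.60, 10.02 and 10.16 in the day 13 GFP+ samples (59-fold lower). The rule required the groups to be apart for each of these. Capn6 (32.6-fold), Itm2a (36.9-fold), Robo2 (27.8-fold) and Cthrc1 (23.9-fold) were also among the 20 lowest, with the glucose transporter Slc2a3 (24.9-fold) and Prc1 (24.4-fold) and Psrc1 (24.8-fold), which act on the mitotic spindle.

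Genes of the contractile apparatus were mostly higher in aortic samples. Of 28 measured members, 25 were higher in aortic samples, 0 were lower and 3 did not pass, with a median log2 difference of 1.79 against 0.07 over all probe sets. Acta2, for whose reporter both groups are labelled positive, was at 12.11, 12.14 and 12.03 in the aortic samples, against 11.23, 11.47 and 11.27 in the day 13 GFP+ samples, a difference of 0.77 (SE 0.229, 1.71-fold, adjusted p = 0.0145), one of the smaller differences of the list. Smooth muscle myosin heavy chain (Myh11), the motor of the contractile filaments and the most specific marker of mature smooth muscle, stood at 11.01, 10.97 and 11.11 in the aortic samples, against 4.36, 4.78 and 4.78 in the day 13 GFP+ samples. The groups were far apart (83.5-fold, adjusted p = 9.18e-14), and Myh11 averaged 4.22 at day 0 and 4.36 in day 13 GFP- cells. Calponin 1 (Cnn1), which binds actin and slows myosin, was at 10.92, 10.85 and 10.89 in the aortic samples, against 5.82, 6.59 and 6.00 in the day 13 GFP+ samples, a difference of 4.75 (SE 0.246, 26.9-fold, adjusted p = 5.01e-10). Leiomodin 1 (Lmod1), an actin filament nucleator, had 9.29, 9.22 and 9.07 in the aortic samples, against 4.98, 4.81 and 4.67 in the day 13 GFP+ samples (20.7-fold). Dystrophin (Dmd), which ties the actin skeleton to the matrix, was at 9.34, 9.22 and 9.60 in the aortic samples, against 3.61, 3.82 and 3.90 in the day 13 GFP+ samples, so that the day 13 GFP+ samples lay at the gauge of unused genes. Synpo2 (40.2-fold), Mrvi1 (16.2-fold), Ppp1r14a (10.1-fold) and Smtn (8.29-fold) were higher too, of which Mrvi1 restrains calcium release under cGMP and Ppp1r14a inhibits myosin phosphatase. Cald1 (10.35 against 9.94, adjusted p = 0.121) and Tpm1 (9.53 against 9.27, adjusted p = 0.195), which encode caldesmon and a tropomyosin, did not pass, and neither did the desmin gene Des, at 8.22, 8.25 and 7.52 in the aortic samples, against 6.99, 7.68 and 7.62 in the day 13 GFP+ samples (adjusted p = 0.118). Des passed without aortic sample 3 (0.81, adjusted p = 0.0391), and after cyclic loess all 28 were higher. By the list's first members alone, the day 13 GFP+ samples had strong Acta2, intermediate Cnn1 and Myh11 (mean 4.64) somewhat above the gauge (3.69).

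**Figure D1:**
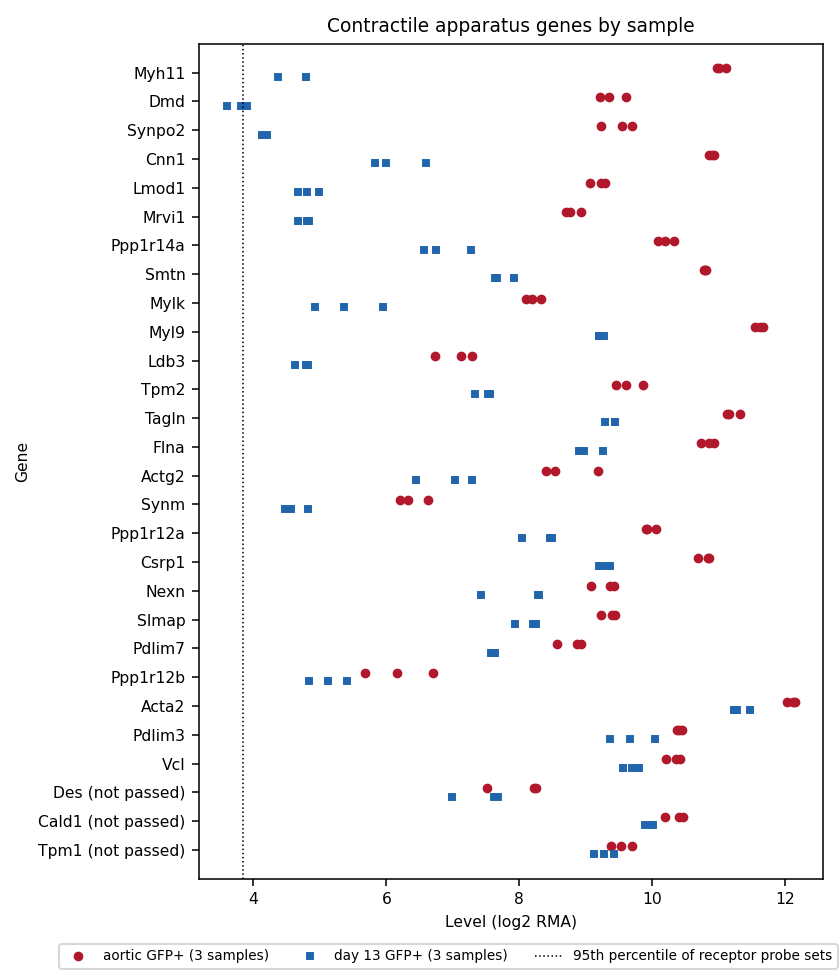
Level (log2 RMA, horizontal axis) of the 28 measured contractile genes in each of the 3 aortic GFP+ samples (red circles) and the 3 day 13 GFP+ samples (blue squares), ordered by difference, with a dotted line at the 95th percentile of the receptor probe sets. Myh11, Dmd and Synpo2 lie farthest apart, with day 13 GFP+ values near the dotted line, while Acta2 is high in both groups and Des, Cald1 and Tpm1 did not pass.

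A CArG box lay in the promoter window (250 bases before to 50 after the gene's first listed start, RefSeq, GRCm38.p6, either strand, exact match) of 4 of the 24 contractile members with a window (16.7%), against 1.57% of all 27025 genes with one. Windows of 2 of them are shown because their genes were higher in aortic samples from very different day 13 GFP+ levels. Myl9, the myosin light chain that is phosphorylated to start contraction and a gene picked here after its values were seen, was at 11.67, 11.62 and 11.55 in the aortic samples, against 9.19, 9.28 and 9.20 in the day 13 GFP+ samples. Its window lies at chr2:156775214-156775513 on the plus strand, and that of Dmd at chrX:82948620-82948919 on the plus strand. Capitals mark the CArG box, which begins 161 bases before the start in Myl9 and 98 bases before it in Dmd. The match describes letters only.
Myl9: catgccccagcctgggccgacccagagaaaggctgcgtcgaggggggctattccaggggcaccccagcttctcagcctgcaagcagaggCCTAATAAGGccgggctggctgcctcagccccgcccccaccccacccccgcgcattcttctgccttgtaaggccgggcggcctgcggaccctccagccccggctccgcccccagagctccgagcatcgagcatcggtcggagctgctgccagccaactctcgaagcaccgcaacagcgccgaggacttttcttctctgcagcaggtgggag
Dmd: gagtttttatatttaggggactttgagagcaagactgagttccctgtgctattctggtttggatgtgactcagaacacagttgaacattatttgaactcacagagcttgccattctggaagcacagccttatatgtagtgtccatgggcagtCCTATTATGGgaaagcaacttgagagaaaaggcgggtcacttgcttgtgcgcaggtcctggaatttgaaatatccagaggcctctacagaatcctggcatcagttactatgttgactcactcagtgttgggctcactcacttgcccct

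Among regulators of smooth muscle genes, 12 of 21 measured members were higher and 2 lower. Myocardin (Myocd), the cofactor of SRF, stood at 9.41, 9.14 and 9.18 in the aortic samples, against 5.25, 5.81 and 5.54 in the day 13 GFP+ samples, a difference of 3.71 (SE 0.147, 13.1-fold, adjusted p = 2.27e-11). SRF itself (Srf) was at 7.73, 7.37 and 7.76 in the aortic samples, against 6.88, 6.50 and 6.60 in the day 13 GFP+ samples, a smaller difference of 0.96 (SE 0.151, 1.95-fold, adjusted p = 0.000103). The groups did not overlap for either. The Notch effectors Hey2 and Heyl differed more than SRF: Hey2 was 17.3-fold and Heyl 9.6-fold higher. Klf4, a zinc-finger factor known to restrain contractile genes and itself an early response gene, was also higher, at 9.16, 8.77 and 8.55 in the aortic samples, against 5.32, 5.27 and 5.34 in the day 13 GFP+ samples (11.4-fold). Mef2c (4.01-fold), Mef2d (2.31-fold), Tbx18 (7.57-fold) and Nr2f2 (6.21-fold) were higher, while Mef2a (9.90 against 9.46, adjusted p = 0.16), Prrx1 (8.55 against 7.94, adjusted p = 0.0922), Mrtfb (6.91 against 6.71, adjusted p = 0.266) and Mrtfa (6.64 against 6.40, adjusted p = 0.24) did not pass. The number of lower members ran from 1 to 3 when 1 sample was left out.

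Of the 12 measured mural cell markers, 9 were higher and 1 lower in aortic samples. Abcc9 and Kcnj8 encode subunits of the ATP-sensitive potassium channel of vascular muscle. Abcc9 was at 10.42, 10.16 and 10.56 in the aortic samples, against 4.41, 4.56 and 4.63 in the day 13 GFP+ samples (57.4-fold). Kcnj8 averaged 6.93 ± 0.39 in aortic and 3.81 ± 0.03 in day 13 GFP+ samples (SD, n = 3 each), a 8.72-fold difference. Cspg4 (5.5-fold) and Notch3 (3.27-fold) were higher. Pdgfrb (1.94-fold) and Rgs5 (3.55-fold) were already strong in day 13 GFP+ samples, with means of 8.57 and 9.21.

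Genes by which arterial muscle senses and answers signals were mostly higher in aortic samples. Of 38 channel and calcium-handling members, 22 were higher and 4 lower, and of 25 vasoactive receptors 13 were higher and 4 lower. For the vasoactive receptors these were 52% and 16%, against 17.7% and 19.5% over all probe sets. Kcnmb1, the subunit that tunes the large calcium-activated potassium channel of smooth muscle, was at 10.46, 10.09 and 10.30 in the aortic samples, against 6.24, 5.31 and 5.26 in the day 13 GFP+ samples, a difference of 4.68 (SE 0.218, 25.6-fold, adjusted p = 1.54e-10). Phospholamban (Pln), which restrains the calcium pump of the sarcoplasmic reticulum, was at 8.44, 8.54 and 8.27 in the aortic samples, against 3.79, 3.80 and 4.02 in the day 13 GFP+ samples (23.4-fold). The groups were apart in both. Kcnab1 (33.4-fold), Ano1 (20.4-fold), a calcium-activated chloride channel, Cacnb2 (14.6-fold) and Casq2 (10.4-fold), the calcium store protein calsequestrin, were higher too, and so was the pore of the L-type calcium channel, Cacna1c (8.34, 8.39 and 8.25 in the aortic samples, against 6.14, 6.82 and 6.80 in the day 13 GFP+ samples). The sodium-calcium exchanger Slc8a1 (6.29 against 6.27, adjusted p = 0.967), Kcnq5 (6.18 against 5.79, adjusted p = 0.241) and Cacna1h (5.88 against 6.01, adjusted p = 0.501) did not pass.

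Among the receptors, the angiotensin II receptor gene Agtr1a stood at 5.60, 6.19 and 4.57 in the aortic samples, against 3.25, 3.02 and 3.29 in the day 13 GFP+ samples (4.82-fold), with day 13 GFP+ values at the gauge of unused genes. The serotonin receptor Htr1b (19.5-fold), the ATP-gated channel P2rx1 (13-fold) and Calcrl (4.93-fold), the receptor of calcitonin gene-related peptide and adrenomedullin, were higher. P2ry1 (7.26-fold) was lower in aortic samples. Ednrb (6.66 against 6.57, adjusted p = 0.815) did not pass. S1pr3 (7.93 against 7.39, adjusted p = 0.0763) did not pass either, and did without aortic sample 3 (0.78, adjusted p = 0.0106). Of 16 genes of the cGMP and cAMP relaxation pathway, 6 were higher and 2 lower (37.5% and 12.5%, against 17.7% and 19.5% over all probe sets). Gucy1a1, a subunit of the nitric oxide receptor guanylate cyclase, was at 9.67, 9.54 and 9.61 in the aortic samples, against 5.07, 5.41 and 5.35 in the day 13 GFP+ samples, a difference of 4.33 (SE 0.203, 20.1-fold, adjusted p = 1.69e-10), and its partner Gucy1b1 was 3.54-fold higher. The natriuretic peptide receptor Npr1 (11.6-fold) and the phosphodiesterases Pde5a (8.96-fold) and Pde3a (10.7-fold) were higher, Pde1c (2.51-fold) was lower, and the kinase that cGMP activates, Prkg1 (8.10 against 7.72, adjusted p = 0.0699), did not pass. Of 15 genes listed for RGS proteins, which shorten G protein signals, 8 were higher and 4 lower. They were led by Rgs7bp (44.1-fold), whose product binds RGS proteins and is not one itself, and Rgs4 (9.94-fold).

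The elastic fibre genes split into 8 higher and 6 lower of 21 measured (38.1% and 28.6%, against 17.7% and 19.5% over all probe sets). Elastin (Eln) was at 9.04, 9.21 and 9.25 in the aortic samples, against 5.76, 6.90 and 7.29 in the day 13 GFP+ samples, a difference of 2.52 (SE 0.356, 5.72-fold, adjusted p = 3.49e-05). Fibulin 5 (Fbln5), which is needed to assemble elastic fibres, averaged 9.95 ± 0.10 in aortic and 7.45 ± 0.82 in day 13 GFP+ samples (SD, n = 3 each), a 5.69-fold difference. Fibrillin 2 (Fbn2), the microfibril protein of embryonic tissue, went the other way, at 3.46, 3.29 and 3.36 in the aortic samples, against 9.44, 9.30 and 9.48 in the day 13 GFP+ samples, a difference of -6.04 (SE 0.169, 65.6-fold lower, adjusted p = 4.72e-13). Mfap5 (42.4-fold), Ltbp4 (6.55-fold) and Efemp1 (4.85-fold) were higher, and Loxl2 (5.59-fold) and Fbln2 (4.94-fold) lower. Mfap4 (10.59 against 10.23, adjusted p = 0.436) and Fbln1 (8.10 against 8.16, adjusted p = 0.874) did not pass.

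Fibrillar and associated collagens were more often lower, 8 of 24 (33.3%) against 5 higher (20.8%). Over all probe sets 19.5% were lower and 17.7% higher. Type I collagen's first chain, Col1a1, was at 9.33, 9.61 and 9.48 in the aortic samples, against 10.83, 11.23 and 11.41 in the day 13 GFP+ samples, a difference of -1.68 (SE 0.344, 3.21-fold lower, adjusted p = 0.00103), and the groups did not overlap. Col1a2 (9.67 against 10.24, adjusted p = 0.297) did not pass. Col3a1 was 1.74-fold lower (adjusted p = 0.0366), a call lost on leaving out any sample but day 13 GFP+ sample 3 (adjusted p of 0.0563 to 0.122) and after cyclic loess (0.228) or repeated quantile normalization (0.0542). Col11a1 (26.4-fold), Col12a1 (12.5-fold) and Col2a1 (4.72-fold), which are typical of growing cartilage, tendon or embryonic stroma, were lower, and Col14a1 (5.3-fold) and Col6a2 (3.19-fold) higher. In the basement membrane, 13 of 22 members were higher and 6 lower, and laminin chains moved in both directions. Lamb2 and Lama2, chains of the laminins of adult muscle, were 4.22-fold and 6.76-fold higher, while Lamb1 and Lama1, chains of early laminins, were 13.4-fold and 3.78-fold lower. Lamb1 stood at 4.96, 5.89 and 5.64 in the aortic samples, against 9.61, 9.06 and 9.05 in the day 13 GFP+ samples. Lamb2 stood at 9.62, 9.52 and 9.42 in the aortic samples, against 7.20, 7.44 and 7.68 in the day 13 GFP+ samples, so both pairs of groups were apart. Col4a1 (8.11 against 8.07, adjusted p = 0.915) and Col4a2 (7.30 against 7.55, adjusted p = 0.475), the common type IV chains, did not pass.

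Small proteoglycans and matricellular proteins also divided. Of 28 proteoglycan genes 10 were higher and 7 lower (35.7% and 25%, against 17.7% and 19.5% over all probe sets). Prelp, which anchors basement membranes to collagen, was at 11.38, 11.22 and 11.20 in the aortic samples, against 5.79, 6.64 and 6.62 in the day 13 GFP+ samples (30.2-fold), and Omd (28-fold), Dcn (13.8-fold, 8.18-fold without day 13 GFP+ sample 3) and Podn (7.12-fold) were higher, whereas the glypicans Gpc3 (9.87-fold) and Gpc1 (7.06-fold) were lower. Biglycan, Bgn (12.12 against 11.71, adjusted p = 0.379), was high in both groups and did not pass. Ogn (11.15 against 9.10, adjusted p = 0.123) and Aspn (9.72 against 7.79, adjusted p = 0.0857) did not pass either. Ogn was at 11.30, 11.10 and 11.06 in the aortic samples, against 6.91, 10.08 and 10.32 in the day 13 GFP+ samples. Of 26 matricellular genes 14 were higher and 5 lower, among them Tnxb (29.7-fold), Smoc1 (25-fold) and Sparcl1 (4.66-fold) on one side and Ccn4 (11.1-fold) and Tnc (2.83-fold) on the other.

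Among proteases and inhibitors, 13 of 30 were higher and 8 lower (43.3% and 26.7%, against 17.7% and 19.5% over all probe sets). The gelatinase Mmp2 was at 7.68, 8.57 and 8.36 in the aortic samples, against 10.72, 10.76 and 10.90 in the day 13 GFP+ samples (6.03-fold lower). Its activator Mmp14 was at 7.78, 8.12 and 7.81 in the aortic samples, against 10.16, 10.13 and 10.34 in the day 13 GFP+ samples (4.95-fold lower). The inhibitor Timp3 was 3.69-fold and Timp4 8.92-fold higher, while Timp2 (10.13 against 9.80, adjusted p = 0.0937) did not pass. Of 18 integrins 8 were higher and 5 lower (44.4% and 27.8%). Integrin alpha 8 (Itga8), typical of vascular muscle, was at 11.12, 10.89 and 11.09 in the aortic samples, against 6.67, 7.34 and 7.06 in the day 13 GFP+ samples, a difference of 4.01 (SE 0.315, 16.1-fold, adjusted p = 5.78e-08). Itga7 (4.46-fold, 6.72-fold without day 13 GFP+ sample 3), the laminin receptor of muscle, and Itga9 (7.23-fold) were higher, Itga6 (9.22-fold) and Itga4 (4-fold) lower, and Itgb1 (10.32 against 10.10, adjusted p = 0.182) did not pass. In the list of synthetic-state genes and TGF-beta targets, 7 of 18 were higher and 6 lower (38.9% and 33.3%). Vcan (5.49-fold) and Tgfbi (4.12-fold) were lower, while Ccn2 (3.21-fold) and Mgp (3.23-fold), an inhibitor of calcification, were higher.

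Genes of surface enzymes and of detoxification were mostly higher in aortic samples. Of 13 ectoenzymes 11 were higher and 2 lower, including Enpep (19.2-fold), which cuts angiotensin II, Ace (5.15-fold, 8.1-fold without day 13 GFP+ sample 3), which makes it, Entpd2 (5.83-fold) and Enpp3 (8.26-fold). Dpp4 (3.61), Bst1 (3.59) and Vnn1 (3.40), 3 of the 11 picked after their values were seen, lay under the gauge in aortic samples too. Nt5e (CD73), which makes adenosine, was 1.7-fold lower (adjusted p = 0.0111), at 3.62, 3.57 and 3.37 in the aortic samples, against 4.99, 4.02 and 3.85 in the day 13 GFP+ samples, a call lost in the fit of the 6 samples alone (0.0693) and with array weights (0.0688). Of 30 members of the oxidative stress and detoxification list, 17 were higher and 2 lower. Maob (19.8-fold), Cbr2 (18.4-fold) and Gstm2 (7.86-fold) were higher, and catalase, Cat (9.28 against 9.27, adjusted p = 0.962), and Gpx3 (9.23 against 9.43, adjusted p = 0.609) did not pass.

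Replication and division genes were lower in aortic samples. Of 38 members of the replication and mitosis list, 37 were lower and 0 higher, with a median log2 difference of -2.22. Topoisomerase 2 alpha (Top2a), which untangles chromosomes, was at 2.85, 2.94 and 3.73 in the aortic samples, against 7.66, 8.21 and 8.27 in the day 13 GFP+ samples, a difference of -4.87 (SE 0.207, 29.3-fold lower, adjusted p = 5.17e-11). Mki67, the gene of the Ki-67 proliferation antigen, stood at 4.53, 5.30 and 5.09 in the aortic samples, against 7.72, 8.37 and 8.58 in the day 13 GFP+ samples (9.51-fold lower). The mitotic kinase gene Cdk1 was at 3.31, 3.68 and 2.90 in the aortic samples, against 7.10, 7.14 and 7.05 in the day 13 GFP+ samples (13.9-fold lower). The groups were apart for all of these, and aortic values of Top2a and Cdk1 lay at the gauge of unused genes. Pcna (9.21 against 9.30, adjusted p = 0.629) was the member that did not pass, and after cyclic loess it was higher by 0.48 (adjusted p = 0.00847). Of 20 CDK inhibitors and G1 cyclins, 11 were lower and 3 higher. Cdkn1a (p21), an inhibitor that p53 induces, was lower, at 8.90, 9.52 and 8.99 in the aortic samples, against 11.03, 10.89 and 10.93 in the day 13 GFP+ samples, and Cdk4 (5.02-fold), Ccnd1 (2.32-fold) and E2f1 (2.9-fold) were lower with it, while Btg2 (3.12-fold) was higher and Cdkn1b (7.13 against 7.40, adjusted p = 0.237) did not pass.

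The window of Top2a (chr11:99024140-99024439, minus strand) is shown because this gene had the largest difference of the list. Cell cycle promoters often hold a CHR element, TTTGAA, and CCAAT boxes. On either strand, 14 of 31 members with a window held TTTGAA (45.2%, against 18.1% of all genes), and 24 of 31 held CCAAT (77.4%, against 37.9%). Capitals mark both motifs, and the TTTGAA nearest the start, read on the other strand as TTCAAA, ends 18 bases before it.
Top2a: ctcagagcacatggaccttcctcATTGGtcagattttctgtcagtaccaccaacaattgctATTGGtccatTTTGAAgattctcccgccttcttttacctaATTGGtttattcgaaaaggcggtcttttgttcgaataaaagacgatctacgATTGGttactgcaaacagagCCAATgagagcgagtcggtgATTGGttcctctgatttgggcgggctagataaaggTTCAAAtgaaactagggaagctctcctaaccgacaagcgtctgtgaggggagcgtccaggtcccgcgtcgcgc

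Imprinted genes of fetal growth made up the next group. Of 26 measured, 18 were lower in aortic samples, 1 was higher and 7 did not pass, with a median log2 difference of -2.0. The noncoding RNA gene H19 stood at 4.13, 3.48 and 4.27 in the aortic samples, against 10.58, 10.63 and 10.58 in the day 13 GFP+ samples. Its neighbour Igf2, the fetal insulin-like growth factor, was at 6.80, 6.36 and 6.85 in the aortic samples, against 11.06, 10.88 and 10.93 in the day 13 GFP+ samples. Those are 99.8-fold and 19.6-fold lower levels (adjusted p = 9.1e-11 and 7.41e-11), with the groups apart. Plagl1, a zinc-finger factor known in mouse to act on other imprinted genes, was at 5.50, 5.85 and 5.42 in the aortic samples, against 10.11, 10.15 and 10.28 in the day 13 GFP+ samples (24-fold lower). Peg3 (16.7-fold), Dlk1 (15.2-fold) and Zdbf2 (11.2-fold) were lower. Grb10, which restrains insulin and growth factor receptors, was the 1 higher member of this list, 4.97-fold, and is named because that count is 1. Igf2r, also imprinted in mouse, was listed with the growth factor axes instead and was higher by 1.75. Gnas (5.02 against 5.40, adjusted p = 0.0887), Rtl1 (3.82 against 4.14, adjusted p = 0.46) and Cdkn1c (4.75 against 5.38, adjusted p = 0.207) did not pass, and Cdkn1c passed without day 13 GFP+ sample 3 (-1.12, adjusted p = 0.0144). H19 averaged 7.22 at day 0, 7.64 at day 5 and 10.33 in day 13 GFP- cells.

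The fetal RNA-binding and chromatin genes went the same way, with 13 of 16 lower and 1 higher. Igf2bp1 and Igf2bp3, which bind and stabilise fetal messenger RNAs, were each 13.8-fold lower. Hmga2, a chromatin protein of growing tissue, was at 4.81, 5.78 and 5.05 in the aortic samples, against 7.79, 8.34 and 8.19 in the day 13 GFP+ samples (7.43-fold lower). Lin28b (3.05-fold), Ezh2 (3.83-fold) and Mycn (3.24-fold) were lower. Myc was the higher member, at 7.96, 8.71 and 7.46 in the aortic samples, against 6.06, 6.02 and 5.92 in the day 13 GFP+ samples (4.12-fold), and it is also an early response gene. Of 14 pluripotency genes, Sox2 and Tdgf1 were lower (3.81-fold and 3.15-fold), Klf2, an early response gene too, was higher, and Pou5f1 (4.29 against 4.55, adjusted p = 0.273) and Nanog (3.60 against 3.79, adjusted p = 0.473) did not pass. Of the 14, 14.3% were lower and 7.14% higher, against 19.5% and 17.7% over all probe sets.

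MicroRNA genes near Dlk1 were lower with it. The probe sets of microRNA genes read transcripts over the hairpin, and they were not shown to measure the mature RNA. Between Dlk1 and Dio3 on chromosome 12, a stretch chosen after its values were seen, 42 of 51 measured microRNA genes were lower in aortic samples (82.4%), 1 was higher and 8 did not pass. Levels were low: the median of the 51 was 2.84 in aortic samples, under the gauge of unused genes (3.97), and 4.43 in day 13 GFP+ samples (gauge 3.69). Some of the lower genes lay under the gauge in both groups, among them the gene of miR-495-3p (1.15 against 3.55). Of the 478 other microRNA genes, 37 were lower (7.74%) and 86 higher (18%). These transcripts share long precursors, so the 51 are not separate measurements. Mir382 was at 3.42, 3.35 and 4.20 in the aortic samples, against 6.41, 7.10 and 7.15 in the day 13 GFP+ samples (9.37-fold lower). Mir485 was at 2.60, 2.65 and 2.62 in the aortic samples, against 5.66, 5.94 and 5.95 in the day 13 GFP+ samples (9.36-fold lower). Mir453 was at 4.26, 4.05 and 3.78 in the aortic samples, against 7.20, 7.71 and 7.50 in the day 13 GFP+ samples (10.8-fold lower). Mir1247, nearest Dio3, was the higher one (2.12-fold). Mature sequences of 4 of the lower genes with large differences are shown with the seed, bases 2 to 8, in capitals (RefSeq, GRCm38.p6, plus strand). No seed was shared among them.
miR-382-5p (chr12:109733781-109733802): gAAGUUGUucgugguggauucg
miR-485-3p (chr12:109734946-109734967): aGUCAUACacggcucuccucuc
miR-300-3p (chr12:109724363-109724384): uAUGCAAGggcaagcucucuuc
miR-495-3p (chr12:109718795-109718816): aAACAAACauggugcacuucuu

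**Figure D2:**
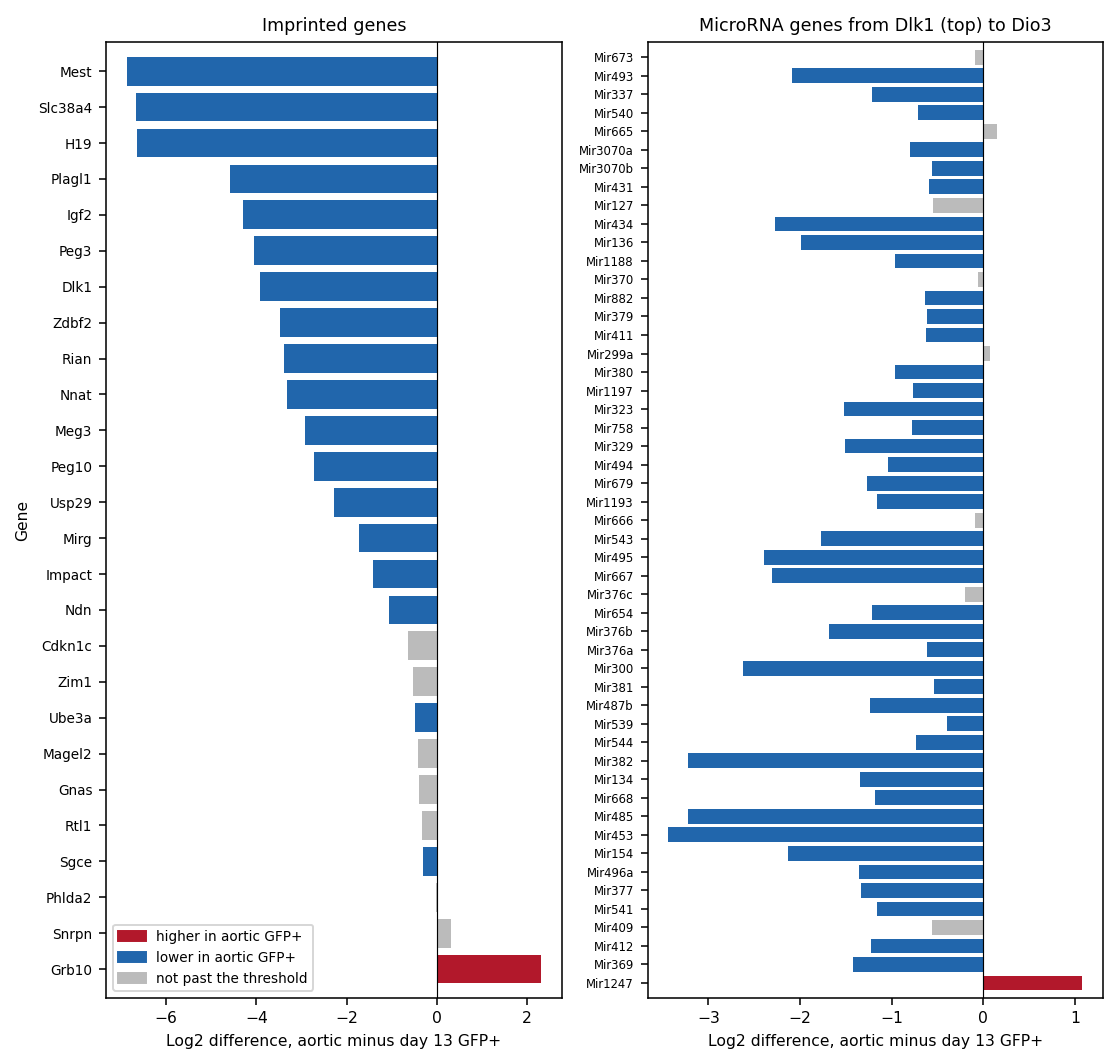
Log2 difference (aortic minus day 13 GFP+, horizontal axes) of the 26 measured imprinted genes, left, and of the 51 microRNA genes between Dlk1 and Dio3 in gene order, right, with red for higher, blue for lower and grey for not past the threshold. Mest, Slc38a4 and H19 reach the largest imprinted differences, 18 imprinted and 42 microRNA genes are lower in aortic samples, and Grb10 and Mir1247 are the higher ones.

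In the other direction, the largest microRNA gene difference was Mir23a, at 6.92, 7.85 and 8.04 in the aortic samples, against 3.49, 3.82 and 4.10 in the day 13 GFP+ samples, a difference of 3.80 (SE 0.296, 13.9-fold, adjusted p = 5.24e-08). Its neighbours on chromosome 8 were higher as well: Mir27a was at 7.64, 8.43 and 8.77 in the aortic samples, against 4.66, 5.08 and 5.05 in the day 13 GFP+ samples (10.2-fold). Mir24-2 was at 2.47, 4.35 and 3.83 in the aortic samples, against 1.45, 1.53 and 1.76 in the day 13 GFP+ samples (3.92-fold). Of these values only that of aortic sample 2 lay above the gauge of unused genes. The related cluster on chromosome 13 was higher by less, with Mir27b (3.72-fold), Mir24-1 (2.79-fold) and Mir23b (2.29-fold). Mir212 was 7.1-fold higher. In all, 87 of 529 microRNA genes were higher and 79 lower (16.4% and 14.9%, against 17.7% and 19.5% over all probe sets). The mature 3p RNAs of the 2 clusters are shown because they share sequence: miR-27a-3p and miR-27b-3p have the same seed, UCACAGU, while the seed of miR-23a-3p is UCACAUU. Capitals mark the seed.
miR-23a-3p (chr8:84208563-84208583): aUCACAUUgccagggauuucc
miR-27a-3p (chr8:84208727-84208747): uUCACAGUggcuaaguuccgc
miR-27b-3p (chr13:63300760-63300780): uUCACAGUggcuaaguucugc
miR-24-3p (chr8:84208875-84208896): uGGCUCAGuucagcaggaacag

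Hox genes, which mark position along the body axis, differed by paralog number. Of 14 measured genes of paralogs 1 to 5, 9 were higher in aortic samples and 0 lower, and of 12 genes of paralogs 10 to 13, 7 were lower and 0 higher. In between, 5 of 12 genes of paralogs 6 to 9 were higher and 1 lower. Hoxa2 stood at 5.65, 5.31 and 5.12 in the aortic samples, against 2.32, 2.59 and 2.60 in the day 13 GFP+ samples, a difference of 2.86 (SE 0.186, 7.25-fold, adjusted p = 6.66e-09). Hoxa5 was at 6.14, 5.89 and 5.46 in the aortic samples, against 2.86, 3.74 and 3.39 in the day 13 GFP+ samples (5.66-fold). At the other end of the clusters the order of the groups was turned. Hoxa13 was at 3.51, 3.57 and 3.87 in the aortic samples, against 5.08, 5.80 and 5.68 in the day 13 GFP+ samples (3.66-fold lower). Hoxd13 was at 3.09, 2.98 and 3.15 in the aortic samples, against 5.36, 6.02 and 5.69 in the day 13 GFP+ samples (6.14-fold lower). Within the Hoxa cluster, the sign changed between Hoxa7 (0.91) and Hoxa9 (-1.36). Apart from Hoxa7, the lower of the 2 groups lay under the gauge of unused genes for each of these genes. Hox paralogs 6 to 9 had 1 to 3 lower members across the scalings tried.

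**Figure D3:**
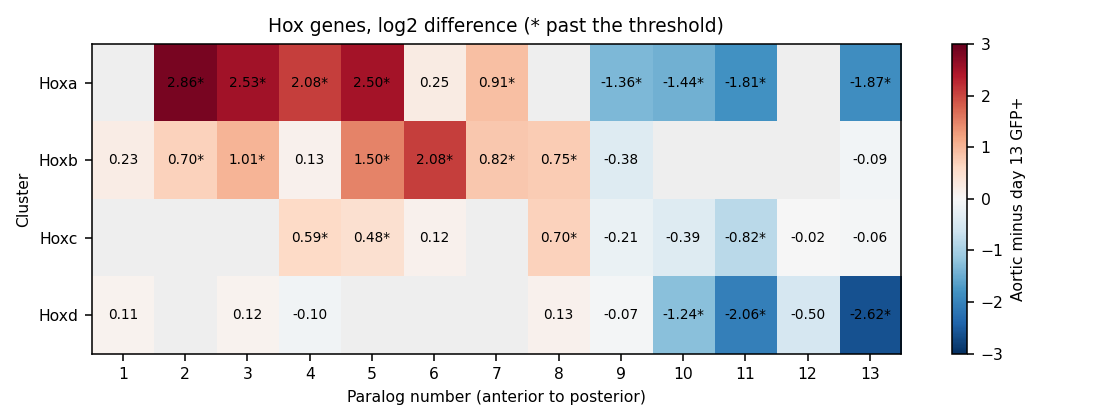
Log2 difference (aortic minus day 13 GFP+, colour and number) of each measured Hox gene by cluster (rows) and paralog number from anterior to posterior (columns), with a star where the test was passed. Hoxa2 to Hoxa5 are higher in aortic samples by 2.08 to 2.86, and Hoxd13 (-2.62) and Hoxd11 (-2.06) are the lowest.

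Regional factors of mesoderm split into 16 higher and 13 lower of 47 (34% and 27.7%, against 17.7% and 19.5% over all probe sets). Osr1, a factor of intermediate mesoderm and connective tissue, was at 10.28, 10.04 and 10.15 in the aortic samples, against 5.37, 7.34 and 7.17 in the day 13 GFP+ samples (11.6-fold, 7.48-fold without day 13 GFP+ sample 3). Foxc1 (5.82-fold) and the heart factor Tbx5 (3.29-fold) were higher. Of other heart and second heart field factors, Gata4 (7.76-fold), Tbx20 (7.23-fold), Isl1 (6.13-fold) and Hand2 (5.2-fold) were lower, as were Eya1 (13.3-fold) and the hindlimb factor Pitx1 (4.13-fold). The balance turned to 14 higher and 15 lower after repeated quantile normalization. Cardiac muscle genes were lower too, 10 of 21 with 2 higher. Tnnt2, cardiac troponin T, stood at 5.82, 5.55 and 6.05 in the aortic samples, against 9.52, 9.53 and 9.24 in the day 13 GFP+ samples (12.3-fold lower). Tnni1 (26-fold), Ankrd1 (12.4-fold) and Ttn (5.67-fold, 9.04-fold without day 13 GFP+ sample 3) were lower, and the calcium release channel Ryr2 (3.5-fold) was higher. The summed level of the cardiac list ran from 88.8 to 89.9 in the aortic samples and from 102 to 116 in the day 13 GFP+ samples. Within the day 13 GFP+ group it was lowest in sample 3. Nkx2-5 (5.49 against 5.35, adjusted p = 0.545) and Myh6 (3.62 against 4.21, adjusted p = 0.261) did not pass, and Myh6 passed without sample 3 (-1.10, adjusted p = 0.0163).

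Of 22 chondrocyte and tendon genes 7 were lower and 5 higher (31.8% and 22.7%, against 19.5% and 17.7% over all probe sets). Scx, a tendon factor, was at 6.43, 6.50 and 6.49 in the aortic samples, against 7.80, 8.78 and 8.81 in the day 13 GFP+ samples (3.97-fold lower). Mkx (6.42-fold, 10.1-fold without day 13 GFP+ sample 3), Sox9 (3.93-fold) and Hapln1 (6.03-fold) were lower, while Cytl1 (7.93-fold) was higher. Tnmd, a tendon protein, had 4.59, 4.33 and 4.61 in the aortic samples, against 3.16, 8.55 and 8.83 in the day 13 GFP+ samples. Day 13 GFP+ sample 3 lay below the aortic samples and samples 5 and 6 above them. Tnmd did not pass (adjusted p = 0.174), and without sample 3 its difference was -4.18 (adjusted p = 0.0041). Of 7 osteoblast genes 4 were higher, led by Phex (13.7-fold). Keratin genes of simple epithelium, Krt8 and Krt18, were 3.02-fold and 4.24-fold lower among 5 lower and 2 higher of 21 epithelial and endoderm markers. Those counts were 23.8% and 9.52%, against 19.5% and 17.7% over all probe sets.

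Sterol and glucose genes were lower in aortic samples. Of 15 cholesterol synthesis genes 13 were lower and 0 higher, with a median log2 difference of -2.18. Hmgcs1, which makes the substrate of the committed step, was at 7.42, 7.04 and 7.31 in the aortic samples, against 9.50, 9.86 and 9.77 in the day 13 GFP+ samples, a difference of -2.45 (SE 0.153, 5.48-fold lower, adjusted p = 4.22e-09). Cyp51, which demethylates lanosterol, stood at 4.90, 4.67 and 4.81 in the aortic samples, against 8.77, 8.75 and 8.87 in the day 13 GFP+ samples (16.1-fold lower). Dhcr7 (7.54-fold), Lss (5.4-fold), Sqle (4.66-fold) and Insig1 (4.6-fold) were lower, and Mvk (5.54 against 5.47, adjusted p = 0.775) and Idi1 (4.51 against 4.75, adjusted p = 0.114) did not pass, Idi1 passing without aortic sample 1 (-0.34, adjusted p = 0.0263). The groups were apart for Hmgcs1 and Cyp51. The window of Hmgcs1 (chr13:119690101-119690400, plus strand) is shown with the sterol element searched, TCACCCCA, in capitals. That element, on either strand, was in 2 of 12 members' windows (16.7%), against 1.47% of all genes.
Hmgcs1: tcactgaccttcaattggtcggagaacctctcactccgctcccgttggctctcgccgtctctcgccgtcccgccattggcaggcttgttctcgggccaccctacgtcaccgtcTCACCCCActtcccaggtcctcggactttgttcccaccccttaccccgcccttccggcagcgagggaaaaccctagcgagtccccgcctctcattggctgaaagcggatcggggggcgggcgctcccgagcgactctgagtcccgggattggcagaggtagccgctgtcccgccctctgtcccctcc

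Of 22 glycolysis and hypoxia genes 13 were lower and 1 higher. Vegfa, the vascular growth factor that low oxygen induces, was at 6.61, 6.91 and 6.26 in the aortic samples, against 9.64, 9.46 and 9.48 in the day 13 GFP+ samples (7.63-fold lower), and the oxygen sensor Egln3 (8.4-fold), the lactate carrier Slc16a3 (5.45-fold), Ldha (3.13-fold) and the glucose transporter Slc2a1 (3-fold) were lower. Pkm (8.95 against 9.24, adjusted p = 0.393), Hk1 (6.56 against 6.88, adjusted p = 0.396) and Pfkp (8.45 against 8.10, adjusted p = 0.352) did not pass, and Pfkp passed without day 13 GFP+ sample 3 (0.73, adjusted p = 0.0215). Leaving out 1 sample gave up to 4 higher members. Of 17 serine and one-carbon genes 11 were lower and 2 higher, with Asns (7.78-fold), asparagine synthetase, Psat1 (5.01-fold) and Mthfd2 (5.36-fold) on the lower side. Of 31 oxidative phosphorylation genes 9 were lower and 3 higher (29% and 9.68%, against 19.5% and 17.7% over all probe sets). After cyclic loess, however, 3 were lower and 12 higher, so the list has no settled direction. The 3 higher before that scaling included the coactivator Ppargc1a (2.68-fold). In fatty acid metabolism 7 of 20 were higher and 4 lower (2 to 4 on leaving out 1 sample, and 1 after cyclic loess), led by Fabp4 (75.8-fold), Cd36 (6.24-fold, 4.06-fold without day 13 GFP+ sample 3), Angptl4 (5.28-fold) and Pparg (4.67-fold), and Lpl (7.30 against 7.06, adjusted p = 0.639) did not pass. The shares of this list were 35% higher and 20% lower, the latter near the 19.5% over all probe sets.

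Clock genes were higher in aortic samples, 13 of 19 with 1 lower. Nr1d1 (REV-ERB alpha), a repressor in the negative limb of the clock, stood at 10.34, 10.35 and 9.88 in the aortic samples, against 5.92, 5.44 and 5.28 in the day 13 GFP+ samples, a difference of 4.64 (SE 0.211, 24.9-fold, adjusted p = 1.12e-10). Dbp, an output factor of the clock, was at 9.54, 8.97 and 7.69 in the aortic samples, against 6.97, 6.55 and 6.54 in the day 13 GFP+ samples (4.12-fold). Per1 was at 8.86, 8.75 and 8.20 in the aortic samples, against 7.16, 6.68 and 6.80 in the day 13 GFP+ samples (3.31-fold). Per2 (7.34-fold), Hlf (5.68-fold), Nr1d2 (4.5-fold) and Npas2 (7.35-fold) were higher, whereas Bhlhe40 (9.26 against 8.98, adjusted p = 0.159) did not pass. The aortic samples spread widely in this list. Arntl (BMAL1), of the positive limb, was at 5.43, 6.17 and 7.22 in the aortic samples, against 6.10, 5.89 and 5.91 in the day 13 GFP+ samples and did not pass (adjusted p = 0.435), but passed without aortic sample 1 (0.73, adjusted p = 0.0182). Per3 was at 6.56, 6.02 and 5.13 in the aortic samples, against 5.16, 5.43 and 5.43 in the day 13 GFP+ samples and did not pass (adjusted p = 0.0773), but passed without aortic sample 3 (0.95, adjusted p = 0.000167). Among aortic samples, Dbp, Per2, Per3 and Hlf were highest in sample 1 and lowest in sample 3, and Arntl and Npas2 the reverse. The labels give no time of day of sampling. An E-box, CACGTG, was in 5 of 17 members' windows (29.4%), against 7.24% of all genes. Those 5 included the 1 lower member and a member that did not pass. The window of Per1 (chr11:69098699-69098998, plus strand) is shown with the E-box in capitals.
Per1: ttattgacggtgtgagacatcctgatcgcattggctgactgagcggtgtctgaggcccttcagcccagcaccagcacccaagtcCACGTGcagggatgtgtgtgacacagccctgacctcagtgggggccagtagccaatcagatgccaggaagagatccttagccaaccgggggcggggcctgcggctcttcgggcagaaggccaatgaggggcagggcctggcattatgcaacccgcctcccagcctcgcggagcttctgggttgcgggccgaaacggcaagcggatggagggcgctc

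Early response genes, which are known to rise within minutes of tissue dissociation, were higher in every member measured: 27 of 27, with a median log2 difference of 2.66 and with the groups apart in all 27. Fos stood at 11.26, 11.14 and 10.92 in the aortic samples, against 6.39, 7.94 and 7.71 in the day 13 GFP+ samples, a difference of 3.76 (SE 0.361, 13.5-fold, adjusted p = 5.8e-07). Atf3 was at 11.16, 11.14 and 11.06 in the aortic samples, against 5.91, 6.05 and 5.69 in the day 13 GFP+ samples (37.7-fold). The orphan receptor gene Nr4a1 was at 11.44, 11.63 and 11.21 in the aortic samples, against 6.66, 6.29 and 6.59 in the day 13 GFP+ samples (30.1-fold). The heat shock genes Hspa1a (18.9-fold) and Hspa1b (21.4-fold) were higher as well, with Nr4a3 (44.5-fold), Fosb (21-fold), Jun (4.08-fold) and Egr1 (5.93-fold). The summed level of the list ran from 256 to 263 in the aortic samples and from 175 to 186 in the day 13 GFP+ samples. Klf4, Myc, Klf2, Il6, Per1 and other genes described in other groups answer the same signals, and the part of handling in their differences was not tested. Dusp1, a phosphatase that ends MAP kinase signals and a gene picked after its values were seen, was at 11.31, 11.28 and 11.27 in the aortic samples, against 7.83, 8.10 and 7.98 in the day 13 GFP+ samples (9.95-fold). Its window (chr17:26508423-26508722, minus strand) holds the cAMP response element TGACGTCA, in capitals, which was in 2 of 24 members' windows (8.33%), against 1.88% of all genes. The CArG box, searched in this list too, was in 1 of 24 windows (4.17%, against 1.57% of all genes).
Dusp1: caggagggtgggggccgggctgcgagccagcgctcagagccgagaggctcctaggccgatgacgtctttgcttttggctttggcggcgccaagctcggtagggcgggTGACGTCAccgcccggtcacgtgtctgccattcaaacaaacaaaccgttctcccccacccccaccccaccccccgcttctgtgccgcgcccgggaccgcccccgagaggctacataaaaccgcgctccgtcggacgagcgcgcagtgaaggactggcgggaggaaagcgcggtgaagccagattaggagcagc

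Immune and inflammatory genes were higher in aortic samples. Il6, a cytokine of stressed stroma, was at 8.15, 9.10 and 7.67 in the aortic samples, against 2.00, 2.21 and 2.01 in the day 13 GFP+ samples, a difference of 6.23 (SE 0.248, 75.3-fold, adjusted p = 2.35e-11). Of 23 chemokine and cytokine genes 15 were higher and 2 lower, among them Cxcl1 (20.8-fold) and Ccl11 (16.5-fold, 10.2-fold without aortic sample 2). Summed levels of this list were 131, 154 and 131 in the aortic samples, against 105, 109 and 109 in the day 13 GFP+ samples, highest in aortic sample 2. Ccl2, a monocyte attractant, was at 5.71, 8.39 and 6.11 in the aortic samples, against 4.49, 4.97 and 5.02 in the day 13 GFP+ samples (3.76-fold, 2.12-fold without aortic sample 2). Complement had 11 of 15 higher and 0 lower: C1s1, a protease of the classical pathway, was at 7.72, 7.48 and 7.45 in the aortic samples, against 2.00, 2.18 and 2.23 in the day 13 GFP+ samples (42.7-fold), and the inhibitors Serping1 (23.9-fold) and Cd59a (10.9-fold) were higher. Of 30 antigen presentation and interferon genes 18 were higher and 2 lower, such as Iigp1 (12.6-fold), Gbp2 (11.7-fold) and H2-D1 (9.87-fold), while H2-K1 (6.60 against 6.49, adjusted p = 0.767) and B2m (10.54 against 10.10, adjusted p = 0.0506) did not pass (B2m passed without day 13 GFP+ sample 5, 0.53, adjusted p = 0.0458). In the fit of the 6 samples alone 14 of these genes were higher. Some higher members of both lists lay under the gauge of unused genes (3.97) in aortic samples too. Their aortic means went down to 3.24 for complement and 2.80 for antigen presentation and interferon genes.

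Markers of other cells of the vessel wall were also higher in the aortic samples, and their part in the matrix, immune and receptor differences was not tested. Of 16 adventitial fibroblast markers 12 were higher and 0 lower, and the list's summed level ran from 105 to 119 in the aortic samples and from 75.7 to 80.2 in the day 13 GFP+ samples. Dermatopontin (Dpt) was at 9.16, 10.11 and 9.62 in the aortic samples, against 3.70, 2.99 and 3.32 in the day 13 GFP+ samples. Pi16 was at 5.67, 7.10 and 6.73 in the aortic samples, against 4.67, 3.88 and 3.70 in the day 13 GFP+ samples, with aortic sample 1 the lowest of its group in both genes. Pdgfra (7.92 against 6.88, adjusted p = 0.097) did not pass with all samples, and passed without aortic sample 1 (1.54, adjusted p = 0.0158). Of 18 endothelial markers 11 were higher and 1, Kdr (2.61-fold), lower, with summed levels from 90.6 to 98.4 in the aortic samples and from 75.6 to 77.9 in the day 13 GFP+ samples. Pecam1, an adhesion protein of endothelium and some leukocytes, stood at 8.29, 7.79 and 7.88 in the aortic samples, against 4.25, 4.19 and 4.30 in the day 13 GFP+ samples. The endothelial cadherin gene Cdh5 was at 5.92, 6.61 and 7.01 in the aortic samples, against 5.40, 4.30 and 4.62 in the day 13 GFP+ samples, while Nos3 (4.24 against 4.22, adjusted p = 0.921) and Tie1 (3.88 against 3.55, adjusted p = 0.169) did not pass. Tie1 passed without aortic sample 2 (0.53, adjusted p = 0.0179).

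Of 19 macrophage markers 13 were higher and 0 lower (summed levels from 87.7 to 99.1 in the aortic samples and from 68.9 to 71.7 in the day 13 GFP+ samples). The defining marker Adgre1 averaged 3.08 in aortic and 2.42 in day 13 GFP+ samples, both under the gauge of unused genes, whereas Cd74, which serves antigen presentation, was at 7.86, 8.31 and 7.69 in the aortic samples, against 3.61, 3.40 and 3.61 in the day 13 GFP+ samples. Of 14 lymphocyte markers 10 were higher and 0 lower (summed levels from 60.3 to 63.7 in the aortic samples and from 45.1 to 46.3 in the day 13 GFP+ samples). The immunoglobulin gene Igkc stood at 8.88, 7.56 and 6.95 in the aortic samples, against 3.46, 3.29 and 3.38 in the day 13 GFP+ samples. Cd3e, of the T cell receptor complex, was at 5.10, 6.15 and 5.86 in the aortic samples, against 3.63, 3.31 and 3.57 in the day 13 GFP+ samples, while Ptprc, carried by all leukocytes, averaged 3.56 in aortic and 1.84 in day 13 GFP+ samples, under the gauge in both. Of 14 adipocyte markers 5 were higher and 0 lower (summed levels from 57.4 to 60.7 in the aortic samples and from 45.3 to 46.5 in the day 13 GFP+ samples). Fabp4, which fat and capillary endothelium share, was at 9.61, 9.60 and 8.03 in the aortic samples, against 2.90, 3.05 and 2.55 in the day 13 GFP+ samples, lowest among aortic samples in sample 3, while the defining marker Adipoq (2.58 against 2.62, adjusted p = 0.867) stayed under the gauge. Glial and neuronal markers each had 1 higher and 3 lower, of 9 and 12. These were 11.1% and 33.3% of the glial and 8.33% and 25% of the neuronal markers, against 17.7% and 19.5% over all probe sets. Stmn2 (9.03-fold lower, 15.7-fold without day 13 GFP+ sample 3) and Map2 (3.86-fold higher) were the largest in each direction. Erythroid markers had 3 higher and 1 lower of 9 (33.3% and 11.1%, against 17.7% and 19.5% over all probe sets), with Hbb-bs at 1.99, 2.55 and 3.34 in the aortic samples, against 1.64, 1.70 and 1.64 in the day 13 GFP+ samples, under the gauge.

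**Figure D4:**
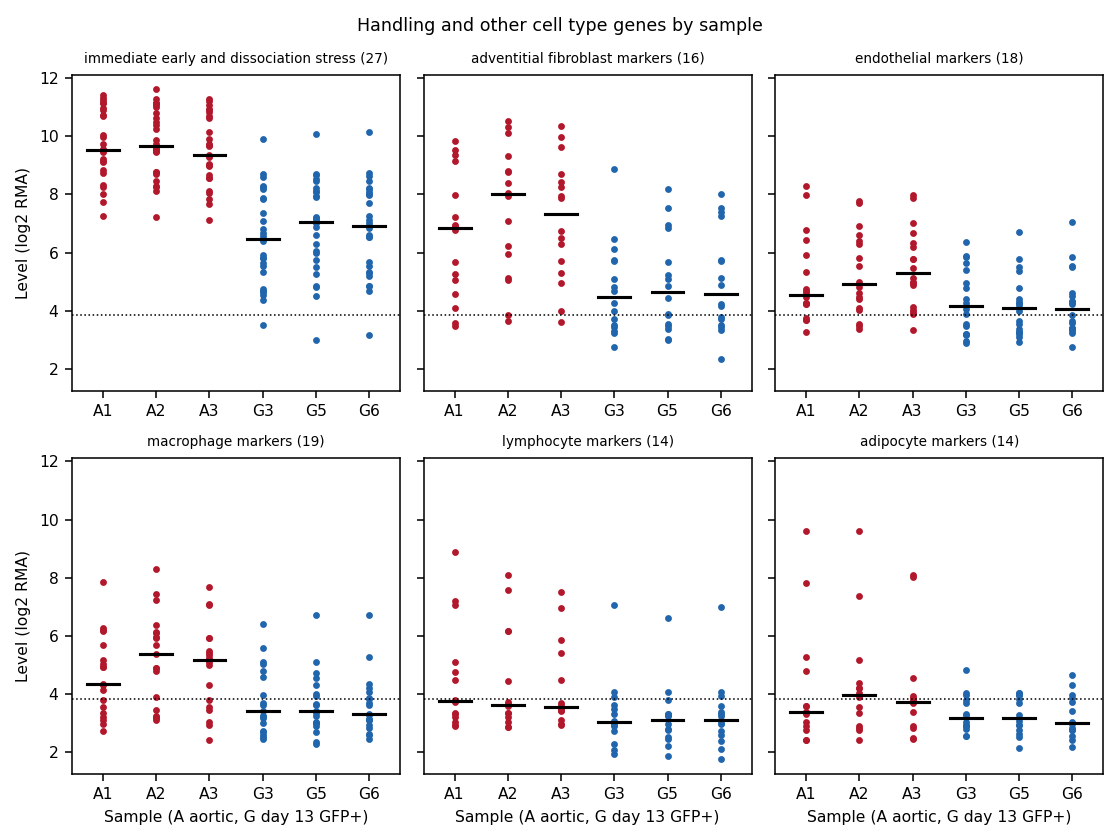
Level (log2 RMA) of each measured member of 6 lists (points) in aortic samples A1, A2 and A3 (red) and day 13 GFP+ samples G3, G5 and G6 (blue), with black bars at the sample's median over the list and a dotted line at the 95th percentile of the receptor probe sets. The 27 early response genes lie higher in every aortic sample, most lymphocyte and adipocyte markers stay near the dotted line with a few well above it, and macrophage markers spread further above it in aortic samples.

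Signalling genes differed in both directions. In the Notch list 11 of 20 were higher and 4 lower: the ligand Jag1 (2.02-fold), the receptor Notch3 and the targets Nrarp (3.06-fold) and Hes1 (2.66-fold) were higher, and Jag2 (2.86-fold) lower. Hey1 was 1.71-fold lower (adjusted p = 0.0154), a call lost in the fit of the 6 samples alone, after cyclic loess and without aortic sample 3 or day 13 GFP+ sample 5 or 6 (0.056 to 0.0886). TGF-beta and BMP genes had 14 of 31 higher and 7 lower (45.2% and 22.6%, against 17.7% and 19.5% over all probe sets). The ligand Bmp2 was at 7.50, 7.03 and 7.10 in the aortic samples, against 5.06, 4.81 and 4.18 in the day 13 GFP+ samples (5.76-fold). The BMP targets Id3 (4.31-fold) and Id4 (6.4-fold), the binding protein Chrdl1 (17.5-fold) and the co-receptor Tgfbr3 (7.14-fold) were higher. Tgfb1 was 2.73-fold lower, and Tgfb2 (8.31 against 8.04, adjusted p = 0.401) and Bmpr2 (10.21 against 10.18, adjusted p = 0.905) did not pass. Wnt genes were balanced, 11 of 35 higher and 10 lower (31.4% and 28.6%). The antagonist Sfrp4 was at 7.09, 7.44 and 7.94 in the aortic samples, against 3.14, 2.79 and 3.23 in the day 13 GFP+ samples (21.6-fold). The Wnt effector Lef1 was at 3.82, 4.12 and 3.42 in the aortic samples, against 7.07, 6.25 and 5.78 in the day 13 GFP+ samples (5.98-fold lower), with Rspo3 (4.72-fold), Dkk2 (6.31-fold) and Lgr5 (4-fold) also lower. Axin2 (4.72 against 4.48, adjusted p = 0.206), a common Wnt target, did not pass.

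Among the growth factor axes 10 of 28 were higher and 6 lower (35.7% and 21.4%, against 17.7% and 19.5% over all probe sets). The PDGF ligands went opposite ways: Pdgfd was at 8.47, 8.08 and 8.21 in the aortic samples, against 3.29, 4.77 and 4.57 in the day 13 GFP+ samples (16.5-fold). Pdgfc was at 6.74, 6.50 and 6.98 in the aortic samples, against 9.71, 9.65 and 9.79 in the day 13 GFP+ samples (7.88-fold lower). The clearing receptor Igf2r (3.36-fold) was higher and Igfbp2 (16.7-fold) lower, while Igf1 (6.31 against 6.52, adjusted p = 0.622), Igf1r (8.08 against 8.43, adjusted p = 0.118) and Fgfr1 (7.93 against 7.99, adjusted p = 0.691) did not pass. Axon guidance genes were lower in 15 of 33 and higher in 9. The receptors Robo1 (11.9-fold), Unc5b (19.7-fold) and Nrp2 (11.6-fold) were lower, and the ligands Ntn1 (13.2-fold), Sema3d (8.43-fold) and Ntn4 (5.42-fold) higher. Of 24 adhesion genes 9 were higher and 5 lower (37.5% and 20.8%). T-cadherin (Cdh13) was at 9.44, 9.04 and 9.41 in the aortic samples, against 4.08, 4.08 and 4.05 in the day 13 GFP+ samples (37.4-fold). N-cadherin (Cdh2) was at 5.73, 6.04 and 4.77 in the aortic samples, against 9.42, 9.03 and 8.92 in the day 13 GFP+ samples (12.2-fold lower), with Cdh11 (8.04-fold) lower as well and Ncam1 (9.48 against 9.62, adjusted p = 0.733) not past the threshold.

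Set side by side, the lists ranged from 27 of 27 members higher to 37 of 38 lower, against 17.7% higher and 19.5% lower over all probe sets. Leaving out 1 sample at a time kept the 27 early response genes, 25 or 26 contractile genes higher, 35 to 37 mitosis genes lower and 13 or 14 cholesterol genes lower. Of 67 list counts of 5 members or more, 2 moved by over 1.5 times when 1 sample was left out, both of the olfactory and vomeronasal receptors (93 to 226 higher and 5 to 12 lower). Of 38 counts of 1 to 4 members, 12 did.

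**Figure D5:**
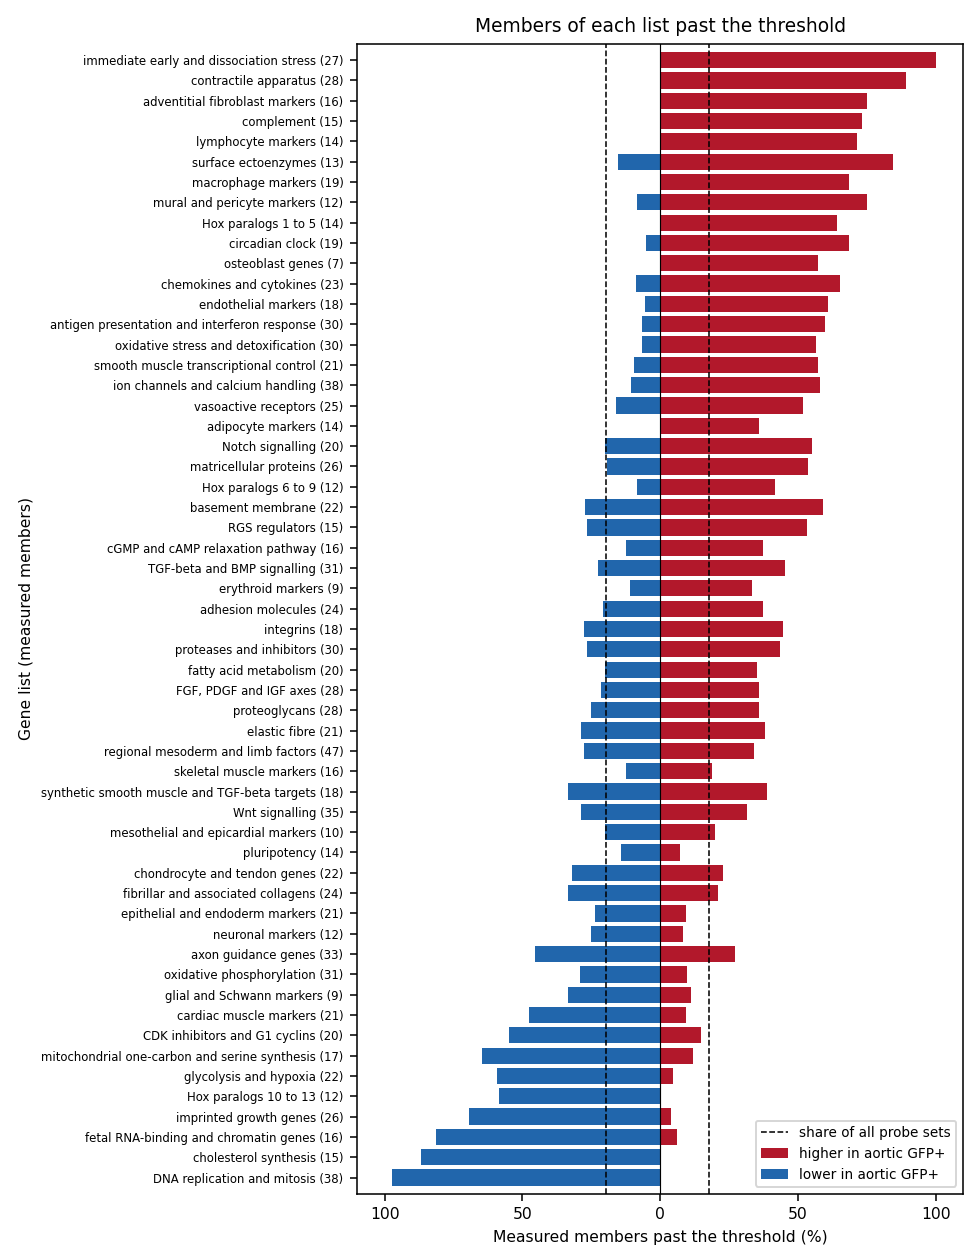
Share of measured members (%, horizontal axis) past the threshold and higher (red, right) or lower (blue, left) in aortic samples for each gene list, with the number measured in brackets and dashed lines at the shares over all probe sets (17.7% higher, 19.5% lower). Early response (27 of 27) and contractile genes (25 of 28) head the list, and mitosis (37 of 38) and cholesterol genes (13 of 15) are at its foot.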

How the data were processed

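RNA of 15 samples in 5 groups of 3 was hybridised to Affymetrix Mouse Gene 2.0 ST arrays, 1 array a sample. The authors deposited log2 values. Per the submitters' processing notes, these came from RMA, run in affy (1.36.1) under R (2.15.1). RMA corrects background, normalizes between arrays by quantiles and summarises probes, so a shift shared by most genes would be removed. Array medians ran from 4.08 to 4.29. No genome build, array batch or sort gate is given in the sources used here. Batches were therefore not examined, and the number of arrays limits the precision.

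From these values limma 3.58.1 in R 4.3.3 fitted 1 mean per group over all 15 samples. The contrast was aortic GFP+ minus day 13 GFP+, with empirical Bayes moderation (10 residual and 5.09 prior degrees of freedom) and Benjamini-Hochberg adjustment over 25206 probe sets at 0.05. The fit was tested on simulated data. GEO's platform table and RefSeq named 23185 probe sets by Entrez ID, and 2021 stayed unnamed. Of 1265 entries in 57 gene lists, 1187 were measured. The lists and members were chosen with earlier results of these data known. The genes that could be named were Acta2, called microRNA genes and up to 20 highest and 20 lowest called genes with groups apart. Those highest and lowest were ranked without unnamed, clone, predicted, accession-like or receptor symbols. From each list its first 3 members could be named, with up to 8 of the largest called change and up to 4 uncalled ones of the highest level. Of these 809 genes 331 are printed, with 106 of the 152 first members. Alternatives changed the samples fitted, array weights, variance moderation, null bound, scaling, low-value filter, replicate block and samples left out. Sequences came from RefSeq tables of GRCm38.p6. Deviations of the same-numbered samples of the compared groups, number 3, correlated at -0.027. Same-numbered day 0 and day 5 samples correlated at -0.014 to 0.0679, also near 0, so the value for number 3 cannot decide whether the numbers pair samples. Day 13 GFP- and GFP+ samples of the same number correlated at 0.397 to 0.597, which the fit over 15 samples treats as independent.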

Additional observations from a re-analysis of the deposited data

How the results depend on the processing

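Against 4449 higher and 4923 lower probe sets, testing for a change beyond a log2 difference of 1 (limma's treat) left 902 higher and 814 lower. Keeping the 12603 probe sets with a mean above the median left 2545 higher and 4647 lower, so that 35.4% of calls were higher, against 47.5% with all probe sets. The fit of the 6 compared samples alone gave 3436 higher and 4201 lower. Leaving out 1 sample at a time gave 3640 to 4790 higher and 4257 to 4800 lower. Cyclic loess gave 4379 and 4054, shared 7232 calls and moved array medians by up to 0.151. Some well-expressed genes moved by more: Bmpr2 went from 0.03 to 0.57 and Cat from 0.01 to 0.53, and both then passed. Itgb1 (0.74), Timp2 (0.78) and Mef2a (0.89) passed as higher after it too. For such genes, whether the test was passed depended on the scaling. No paired analysis was possible because the groups share only number 3. The replicate block as a random effect (correlation 0.0626) gave 4451 higher and 4915 lower. Of 337 genes in the text, 276 passed the test, and 261 of the 337 kept their side of the threshold under each of the 17 alternatives that tested them. Under treat 47 of the 276 did not pass. Under the other alternatives the calls of Col3a1, Hey1 and Nt5e were lost, as the report gives. Pcna had the other sign after cyclic loess, 0.48.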
